A study of Mus musculus with 17 samples.

Results

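Cytosolic ribosomal protein genes encode the proteins of the small (40S) and large (60S) subunits of the ribosome that translates nuclear mRNAs. They were taken as the protein-coding genes whose symbol starts with Rpl or Rps and a digit, together with Rplp0, Rplp1, Rplp2 and Rpsa, leaving out pseudogenes and the Rps6k kinases. This gave 86 of the 36293 genes of the bulk files. Of these, 31 encode 40S proteins, 43 encode 60S proteins, 3 encode proteins of the acidic stalk and 8 are paralogs or retrogenes of other members. The remaining member, Rps19bp1, encodes a binding partner of Rps19 and is taken by its symbol alone. In the single nuclei, 85 members had at least 1 UMI (unique molecular identifier, a count of captured molecules) among 36473 genes detected.

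Each ribosome holds a single copy of most of these proteins, so cells make them in matched amounts. Their mRNAs typically begin with a run of pyrimidines, the 5′ terminal oligopyrimidine (TOP) tract, which lets mTOR signaling control their translation. Neurons also transport many of these mRNAs into axons and dendrites. The present libraries were made from isolated nuclei, whose RNA is largely newly made or not yet exported. Transcripts of the mitochondrial genome were also counted, so some RNA from outside the nucleus was present.

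The study asked which genes change in the cortex of male C57BL/6 mice after chronic unpredictable stress (CUS). CUS mice met 3 different stressors per day for 12 days, and control mice lived in another room and were handled each day. For bulk nuclear RNA-seq, nuclei of the medial prefrontal cortex (mPFC) came from 4 control and 5 CUS mice at postnatal day 90. For sNucDrop-seq, a droplet method that counts RNA in single nuclei, neocortex came from 4 other control and 4 other CUS mice at postnatal day 80. The labels name no transgene or deletion in these mice. The labels place tissue collection 24 h after the last stressor, whereas the methods of the study place the bulk collection after behavioral tests.

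Bulk libraries held 26188825 to 30525015 reads on genes, of which 27782 to 40123 fell on members. Nuclei libraries kept 1933 to 4230 nuclei and 4678403 to 12426541 UMIs per mouse, with 145932 member UMIs over all 26626 kept nuclei. Between 4 and 7 kept barcodes per library were also kept in another library. Although the tissue is labelled neocortex, 6.78% of kept nuclei fell in clusters led by markers of striatal neurons. In bulk, summed markers of oligodendrocyte precursors ran from 331 to 407 CPM (counts scaled to a common library size) in control mice and from 257 to 319 CPM in CUS mice, with 1 of 6 markers called lower. Of 9 astrocyte markers 3 were called lower. Markers of early oligodendrocytes (2 of 4 called lower) summed to 60.6 to 88.0 CPM in control and 51.7 to 58.8 CPM in CUS mice, also without overlap. Oligodendrocyte markers had 1 of 8 called lower (306 to 721 and 321 to 406 CPM), and striatal markers 1 of 9 called higher (993 to 1492 and 1475 to 1715 CPM) with a median log2 fold change of -0.77. Of neuronal lists, 1 marker each was called higher for excitatory neurons (of 5), Ex_L2/3 (of 7), Ex_L5/6 (of 5) and Inh_Vip (of 5, with sums of 16.4 to 20.5 and 20.4 to 24.4 CPM), 1 of 6 was called lower for Ex_L6, and Inh_Ndnf and Claustrum had 1 lower each, Inh_Ndnf also 1 higher. No marker was called in the lists of Ex_L4, Ex_L5, inhibitory neurons, Inh_Pv, Inh_Sst, microglia or endothelial cells. Nor was any called for choroid plexus, pericytes and meninges, or red cells. All these calls stand beside 3.29% of all genes called in bulk. The part of such marker differences in the values below was not tested, and in bulk RNA fewer cells of a type cannot be told apart from less RNA per cell.

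Where transcripts start is shown for the members with the smallest p in each comparison and for 3 of contrasting level or role. Of 86 members, 66 had a start in the RefSeq promoter table (GRCm38.p6, the assembly of mm10), with 78 starts in all. Each line gives 30 bases on the gene's strand, with the start at the 16th base, and capitals mark the pyrimidine run that opens with C within 10 bases of the start.
Rps2, chr17:24720048-24720077, plus strand: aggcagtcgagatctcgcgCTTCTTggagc
Rps26, chr10:128626492-128626521, minus strand: gtcgggcaagccgccggatCCTCTTTCgag
Rps15, chr10:80292416-80292445, plus strand: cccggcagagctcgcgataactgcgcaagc
Rps21, chr2:180257364-180257393, plus strand: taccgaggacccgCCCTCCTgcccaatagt
Rplp2, chr7:141447636-141447665, plus strand: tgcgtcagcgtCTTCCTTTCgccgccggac
Rps15a, chr7:118116133-118116162, minus strand: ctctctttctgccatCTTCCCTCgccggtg
Rpl18, chr7:45718056-45718085, plus strand: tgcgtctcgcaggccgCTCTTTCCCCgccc
Rpl41, chr10:128549154-128549183, minus strand: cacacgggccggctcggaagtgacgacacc
Rps27, chr3:90213634-90213663, minus strand: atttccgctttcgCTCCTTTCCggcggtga
Rpl22l1, chr3:28805493-28805522, plus strand: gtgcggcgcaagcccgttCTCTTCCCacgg
Of these 10 windows, those of Rps15 and Rpl41 hold no such run. RefSeq starts need not be the bases where transcription begins in cortex. The start shown lies 1947 bases from the 5′ end of the gene as counted in bulk for Rps2, and 2614 bases for Rpl18. For the other windows shown it lies at most 281 bases away.

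A pyrimidine run of at least 5 bases, read on the gene's strand, stood at 42 of the 78 member starts (53.85%), against 30.72% of all 32851 starts in the table. In the window from 250 bases before to 50 bases after the start, read on both strands, the letters CGGAAG, which ETS factors bind, were in 60.26% of member starts and 16.85% of all starts. The letters AANATGGC, bound by Yy1, were in 21.79% of member starts and 6.052% of all. TATAAA, the TATA box, was in 8.974% of member starts and 13.62% of all. The run can overlap CGGAAG, whose reverse complement holds CTTCC, as at the start of Rpl36a, so these shares are not independent. These letters describe the windows and do not show binding. Rpl30 and Rpl32, whose mouse promoters are known for Yy1 binding, have no entry in the table.

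Members were short genes on 19 chromosomes, with 14 on chromosome 7, 7 on chromosome 11 and 4 on chromosome X. Their median span was 3.27 kb, from 0.374 to 25.2 kb, against 23.5 kb for all genes tested in bulk. Levels are compared between genes as CPM per kb of gene span. Whether intronic reads were counted in bulk is not given, so the order of genes on this scale is uncertain. The highest were Rpl41, which encodes the smallest ribosomal protein, at 14.97 CPM per kb, Rplp1 of the acidic stalk at 9.93 and the 40S gene Rps27 at 9.55. The lowest were the paralogs Rpl3l at 0.021, Rpl10l at 0.011 and Rpl39l at 0.005 CPM per kb, known from striated muscle (Rpl3l) and testis (Rpl10l and Rpl39l). Rpl10l had no read in any control mouse and 1 and 2 reads in CUS mice 3 and 4.

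**Figure D1:**
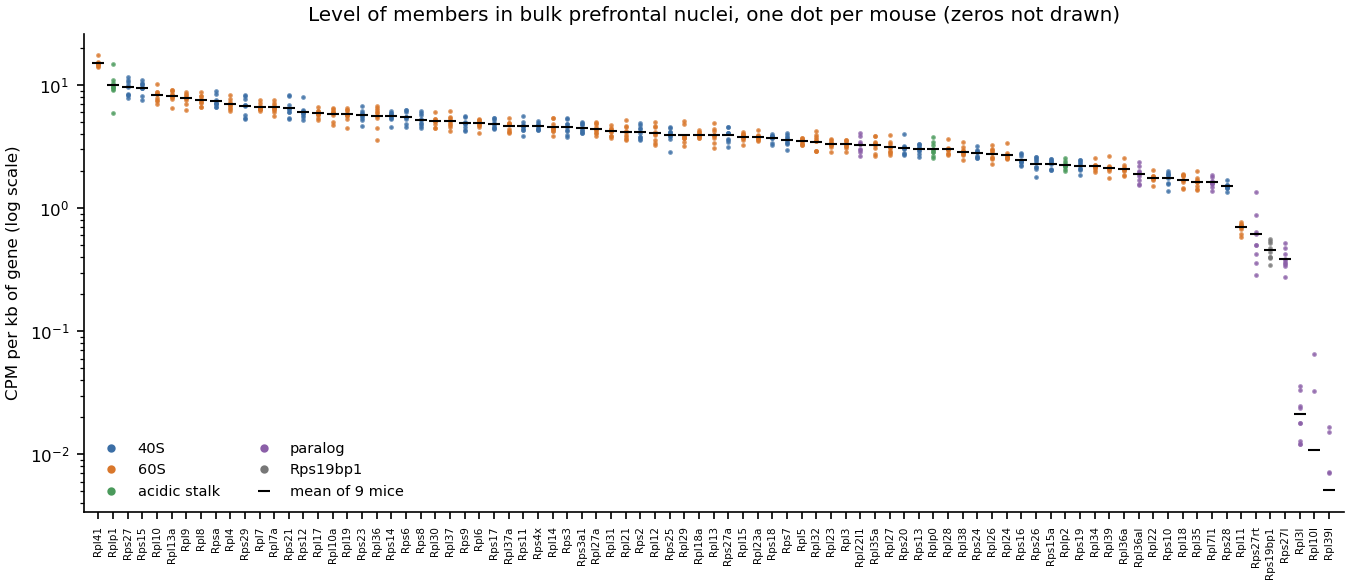
CPM per kb of gene span (log scale) of the members in bulk mPFC nuclei (all but 1 drawn), with one dot per mouse, zeros not drawn, and a bar at the mean of 9 mice. Rpl41 stands highest at 14.97 CPM per kb, and the tissue-restricted paralogs Rpl3l, Rpl10l and Rpl39l stand lowest.

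In bulk mPFC nuclei, no member was called as different between CUS and control mice. Of 82 members tested, 0 were called at a false discovery rate (FDR) of 0.05 by edgeR's quasi-likelihood test, beside 3.29% of all 18394 genes tested. DESeq2 and edgeR's likelihood ratio test also called 0 members, beside 7.68% and 7.23% of all genes, and 2 members had an unadjusted p under 0.05, beside 21.5% of all genes. The members' log2 fold changes (CUS over control) ran from -0.21 to 0.23 with a median of 0.01, which was also 0.01 over all genes tested. Of the 82, 47 were above 0, beside 51.3% of all genes, and none had groups that do not overlap, beside 8.76% of all genes. The 4 untested members, Rpl3l, Rpl10l, Rpl39l and the retrogene Rps27rt, fell under the filter on low counts.

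The share of reads on members was 0.106, 0.113, 0.123 and 0.140% in the 4 control mice and 0.115, 0.114, 0.122, 0.127 and 0.117% in the 5 CUS mice. Both the lowest and the highest share belonged to control mice, and the CUS values lay between them.

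The smallest p belonged to Rpl18, a 60S protein gene at chr7:45715457-45720836. Its level was 7.82, 7.69, 8.70 and 9.18 CPM in control mice and 9.03, 9.98, 9.77, 9.97 and 10.1 CPM in CUS mice. Only CUS mouse 1 lay within the control range. The log2 fold change was 0.23 (SE 0.08), with an FDR of 0.131 in edgeR's quasi-likelihood test. Next came Rps15a, a 40S protein gene, at 24.5, 24.0, 23.9 and 29.5 CPM in control mice and 27.0, 28.6, 28.1, 29.8 and 28.3 CPM in CUS mice. Control mouse 4 lay among the CUS mice. Its log2 fold change was 0.15 (SE 0.07, FDR 0.223 in edgeR), and without control mouse 4 it was 0.24 with an FDR of 0.0415, the only call of a member in any bulk setting, beside 2.74% of all genes called there.

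Rps21, another 40S gene, had the lowest log2 fold change, -0.21 (SE 0.13, FDR 0.376 in edgeR). Its level was 5.78, 6.84, 8.63 and 8.95 CPM in control mice and 5.65, 6.43, 7.34, 6.79 and 6.40 CPM in CUS mice, so the groups overlapped. Among 60S genes, Rpl21 measured 16.1, 17.6, 19.2 and 21.3 CPM in control mice and 15.2, 17.3, 18.9, 15.6 and 14.9 CPM in CUS mice (log2 fold change -0.18, SE 0.09, FDR 0.280 in edgeR). Of its CUS mice, 3 were below every control mouse. Rpl6 measured 19.5, 21.8, 24.4 and 22.6 CPM in control mice and 23.1, 22.4, 24.8, 24.8 and 25.3 CPM in CUS mice, with overlap (0.13, SE 0.07, FDR 0.330). Rpl39 had a log2 fold change of 0.15 (SE 0.10, FDR 0.428), and CUS mouse 1, at 7.64 CPM, stood above the 5.99 to 6.23 CPM of the other CUS mice. Neither Rpl30 (log2 fold change -0.06, FDR 0.740) nor Rpl32 (-0.13, FDR 0.577) was called.

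The acidic stalk, through which the ribosome recruits elongation factors, is built on Rplp0. Rplp0 measured 12.8 ± 2.39 CPM in control and 13.1 ± 1.12 CPM in CUS mice (SD, n = 4 and 5). Rplp2 measured 9.31 ± 0.99 and 9.57 ± 0.37 CPM. Rplp1 ran from 7.51 to 18.5 CPM in control mice and from 11.4 to 13.7 CPM in CUS mice, so its control mice enclosed all CUS mice. Rpsa, a 40S protein also known as the laminin receptor precursor, measured 35.8 ± 4.33 and 33.4 ± 3.43 CPM. Rps19, which is mutated in Diamond-Blackfan anemia, measured 11.7 ± 1.40 and 12.3 ± 0.95 CPM. None of these was called.

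No paralog or parent was called. Rpl22l1 measured 6.67 ± 1.42 CPM in control and 6.40 ± 0.44 CPM in CUS mice, while its parent Rpl22 measured 14.8 ± 1.84 and 14.7 ± 0.48 CPM. Per kb of gene, however, Rpl22l1 stood higher (3.28 against 1.77 CPM per kb over 9 mice). Rpl7l1 measured 13.6 ± 1.53 and 14.6 ± 0.98 CPM and Rpl7 22.3 ± 2.27 and 22.4 ± 1.16 CPM. Rpl36al measured 2.56 ± 0.48 and 2.57 ± 0.32 CPM beside 5.12 ± 0.75 and 4.99 ± 0.37 CPM for Rpl36a. Rps27l, a target of p53, measured 1.30 ± 0.35 and 1.36 ± 0.18 CPM beside 10.4 ± 1.89 and 11.1 ± 1.40 CPM for Rps27. Rpl3 (45.9 ± 4.95 and 46.6 ± 2.26 CPM), Rpl10 (19.6 ± 3.23 and 18.9 ± 1.43 CPM) and the X-linked Rps4x (20.4 ± 1.56 and 20.6 ± 1.11 CPM) are parents of paralogs that were near 0 or not measured. Because only uniquely mapped reads were counted, reads shared by a member and its processed copies are lost, and values of such genes are uncertain.

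**Figure D2:**
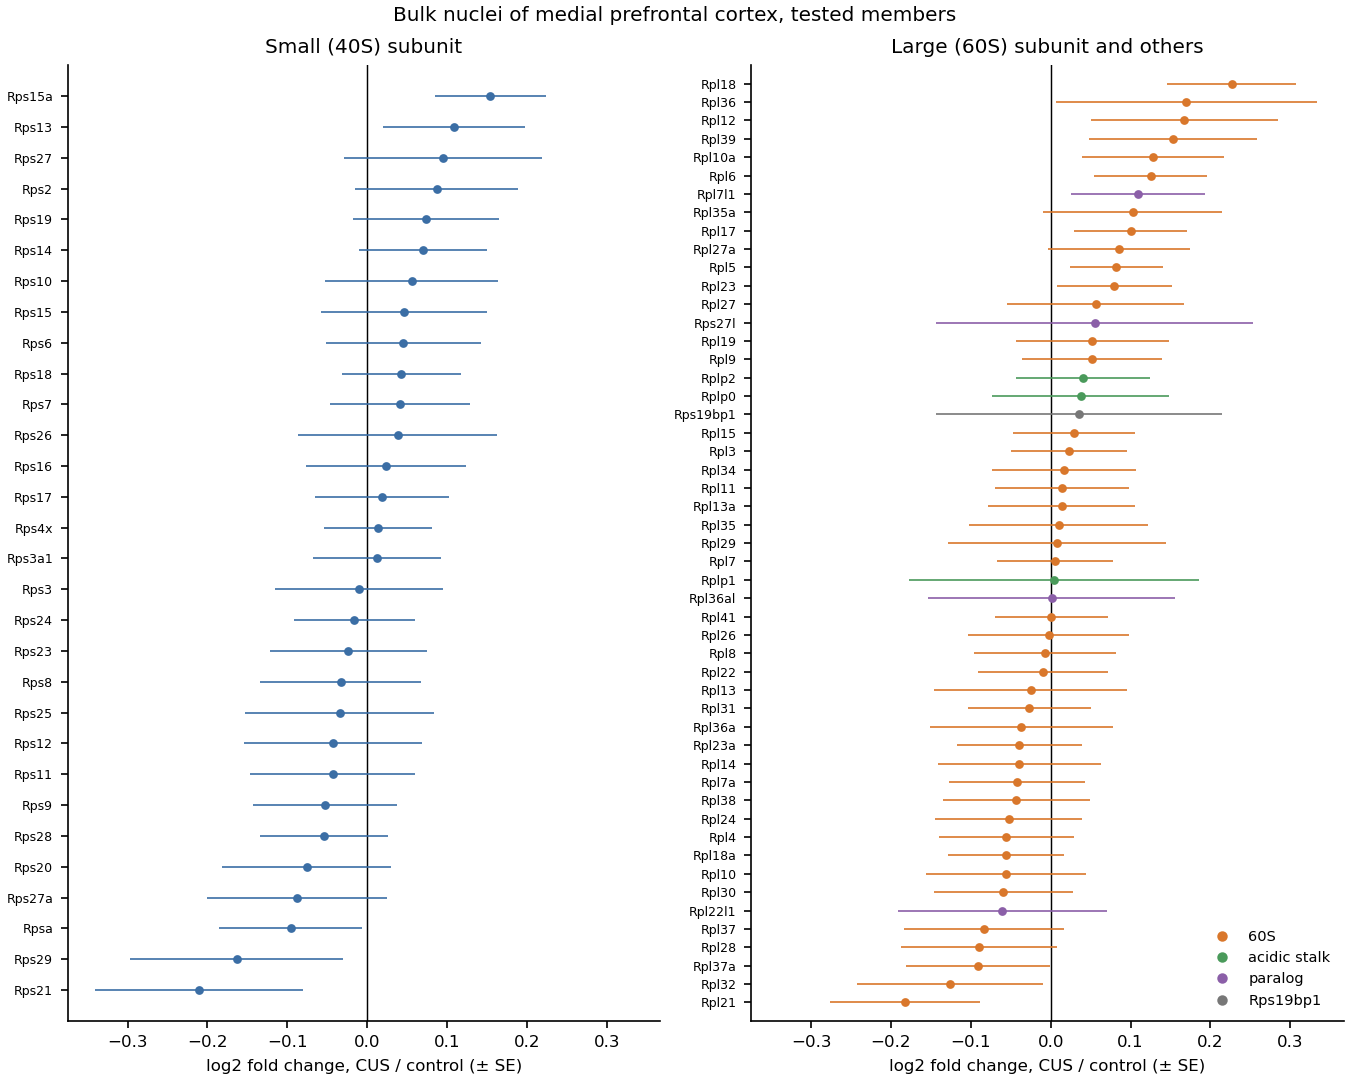
Log2 fold change (CUS over control) with its SE for the members tested in bulk mPFC nuclei (all but 1 drawn), with 40S genes on the left and the others on the right, colored by role. All lie between -0.21 (Rps21) and 0.23 (Rpl18), and none was called.

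The spans of 30 members hold, on the same strand, 58 genes for small nucleolar RNAs (snoRNAs), which guide modification of ribosomal RNA. Rpl4 holds the most, 5. Of 47 snoRNA genes tested in bulk, 0 were called by edgeR, beside 3.29% of all genes. Of these, 32 were above 0, beside 51.3% of all genes, and the median log2 fold change was 0.13. Read counts of most were low, which limits such calls. The 30 host members had a median level of 4.31 CPM per kb and the 52 other tested members 3.63. Median log2 fold changes of hosts and others were -0.02 and 0.01. Rpl4 itself measured 37.8 ± 5.47 and 36.4 ± 1.51 CPM.

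Genes around the ribosome gave these calls in bulk, beside 3.29% of all genes called. Ribosome biogenesis had 0 of 32 called, the mTOR pathway 0 of 18, elongation factors 0 of 8 and other TOP mRNAs 0 of 10. Of 9 measured ribosomal protein pseudogenes, 0 could be tested. Initiation factors had 2 of 53 called, Eif3h and Eif3j1, both lower, and mitochondrial ribosomal proteins 1 of 78, Mrps6, also lower, while 62 of these 78 were above 0 (median 0.09). Mitochondrial genome transcripts had 1 of 10 called, mt-Nd4, lower, with 0 of 10 above 0. Nuclear genes of the respiratory chain had 0 of 101 called and a median log2 fold change of 0.06.

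In the nuclei, CUS mice 1 and 2 lay at opposite ends of the member share. The share of UMIs on members was 0.213, 0.184, 0.210 and 0.196% in control mice and 0.298, 0.171, 0.230 and 0.246% in CUS mice. CUS mouse 1 was highest and CUS mouse 2 lowest of all 8, below every control mouse. This held by class too, as CUS mouse 2 was lowest in 12 and CUS mouse 1 highest in 14 of 15 named classes. The mean share was 0.201 ± 0.013% in control and 0.236 ± 0.052% in CUS mice (SD, n = 4 each), a difference within the spread of the CUS mice. It was 0.015 percentage points without CUS mouse 1 and 0.057 without CUS mouse 2, beside 0.036 with all mice. Barcodes under 600 genes, which were not kept, had member shares from 0.161 to 0.343% over 7 libraries. CUS mice 1 and 2 also had the lowest mitochondrial shares in kept nuclei, 0.383 and 0.340%. Control mice 4 and 1 came next at 0.421 and 0.472%, and the remaining mice of both groups had 0.609 to 0.709%.

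Over all kept nuclei summed per mouse, no member was called. Of 19 members tested, 0 passed an FDR of 0.05 in edgeR's quasi-likelihood test, beside 0.0199% of all 5015 genes tested, and DESeq2 and the likelihood ratio test also called 0, beside 0.0399% of all genes each. The 19 tested members held 55.9% of the member UMIs. Of the 19, 18 had a log2 fold change above 0, beside 49.3% of all genes, with a median of 0.25 (all genes, -0.00), and 5 had an unadjusted p under 0.05, all higher, beside 4.25% of all genes. Without the filter on low counts, 73 of 85 members were above 0, beside 55.2% of all genes, with a median of 0.21. Without CUS mouse 1 the median of the tested members was 0.16, and without CUS mouse 2 it was 0.37.

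The 5 were Rps21 (log2 fold change 0.48, SE 0.16), Rpl41 (0.43, SE 0.17), Rps26 (0.39, SE 0.16), Rplp2 (0.39, SE 0.17) and Rpl32 (0.34, SE 0.15), each with an FDR of 0.580 in edgeR. Rps21 measured 50.1, 60.6, 58.5 and 52.3 CPM in control mice and 109, 60.6, 65.8 and 74.5 CPM in CUS mice. CUS mouse 1 was far above the others, and CUS mouse 2 lay within the control range. Rpl37, which was named after its values were seen, was called when no filter was applied (log2 fold change 0.55, FDR 0.0197), beside 0.302% of all genes called in that setting.

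Layer 2/3 excitatory neurons (Ex_L2/3-like) formed 1 cluster of 3915 nuclei in which all 7 markers, Cux2, Rasgrf2, Calb1, Enpp2, Otof, Stard8 and Lamp5, were enriched. Clusters were made without the members. Of 22 tested members, 1, Rps2, was called at an FDR of 0.2, the threshold for classes, and was higher in CUS mice. This is beside 1.09% of all 5435 genes called, and 0.515% called higher. Rps2 encodes a 40S protein near the entry of the mRNA channel and lies at chr17:24718116-24721929. It measured 31.3, 25.9, 34.7 and 31.7 CPM in control mice and 53.2, 40.2, 48.1 and 52.0 CPM in CUS mice. All CUS mice were above all control mice. The log2 fold change was 0.66 (SE 0.18, FDR 0.159 in edgeR). Its 405 UMIs were just above the minimum of 391.5 for a test, with 26, 42, 64 and 22 UMIs in control mice and 67, 35, 53 and 96 in CUS mice. It thus passed the filter only through the CUS mice, where it was higher, and with no filter it was not called (log2 fold change 0.65, FDR 0.233). It was called in 6 of the 15 alternative settings in which it was tested.

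All 22 tested members had a log2 fold change above 0, from 0.04 to 0.66, beside 52.7% of all genes. Their median was 0.35, against 0.01 over all genes. Of the 22, 8 had an unadjusted p under 0.05, all higher, beside 6.35% of all genes, and 4 had CUS mice above all control mice (Rps2, Rps21, Rps15a and Rps9), beside 2.87% of all genes. A tested member had to pass a minimum of UMIs. Without that filter, 73 of 84 members were above 0, beside 50.7% of all genes, and the median was 0.32.

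Rps26, a 40S protein at the mRNA exit, measured 28.9, 40.04, 49.3 and 25.9 CPM in control mice and 65.9, 45.9, 64.5 and 59.6 CPM in CUS mice, with CUS mouse 2 inside the control range (log2 fold change 0.64, SE 0.19, FDR 0.249 in edgeR). Rps15, which takes part in export of the 40S subunit, measured 55.4, 41.3, 36.8 and 34.6 CPM in control mice and 89.7, 65.5, 43.6 and 60.7 CPM in CUS mice. CUS mouse 3 was the one inside the control range (0.64, SE 0.20, FDR 0.264).

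Rps21 measured 54.2, 45.0, 51.5 and 54.7 CPM in control mice and 77.8, 58.6, 64.5 and 76.4 CPM in CUS mice, without overlap (0.46, SE 0.16, FDR 0.295). For Rplp2, CUS mouse 2 lay among the control mice at 33.3 CPM while the other CUS mice had 55.4 to 70.6 CPM (0.58, SE 0.20, FDR 0.308). Rps15a did not overlap either, at 44.6 to 50.9 CPM in control and 55.1 to 69.9 CPM in CUS mice (0.41, SE 0.15, FDR 0.343). Rpl41 had 0.44 and Rps9 0.48, both with an FDR of 0.351. Rps9 was named after its values were seen.

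**Figure D3:**
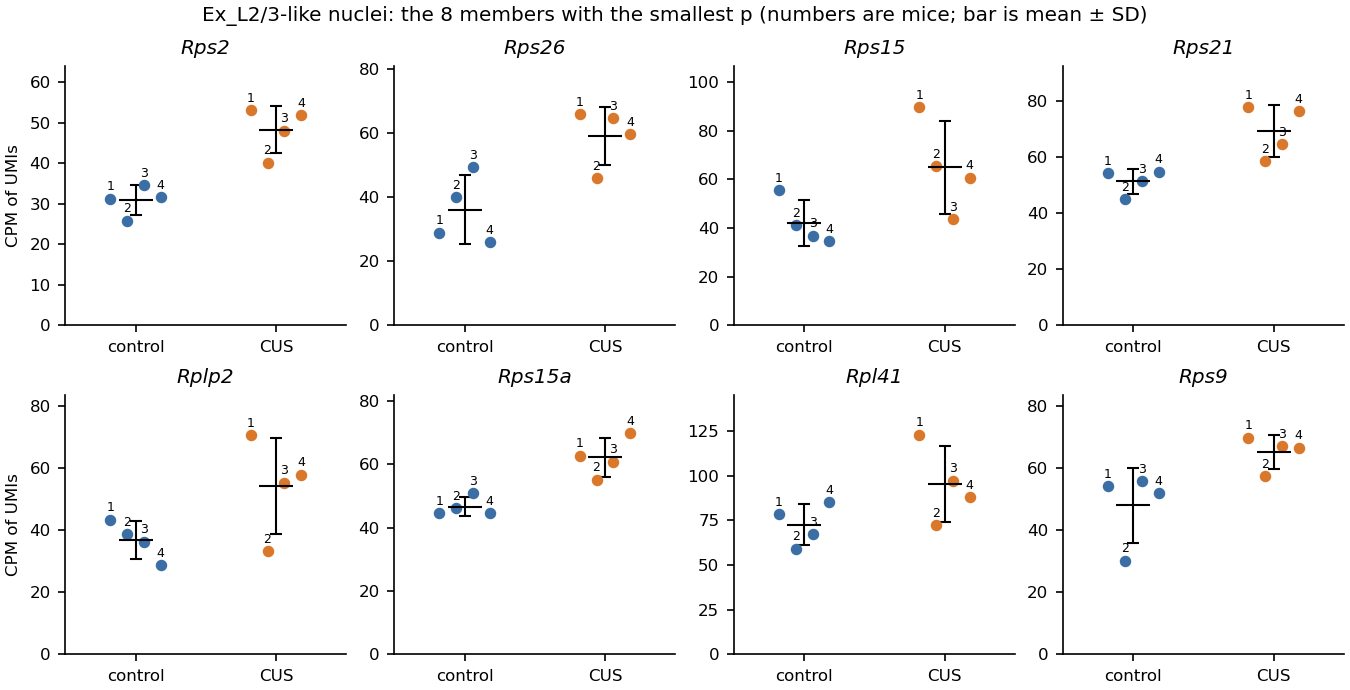
CPM of UMIs per mouse in Ex_L2/3-like nuclei for the 8 members with the smallest p, numbered by mouse, with the mean and SD of 4 control and 4 CUS mice. Rps2, Rps21, Rps15a and Rps9 do not overlap between groups, and CUS mouse 2 is the lowest CUS mouse in all panels except Rps15.

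The count of calls changed with most single mice left out. Without CUS mouse 2, 15 of 24 tested members were called, all higher, beside 7.08% of all genes called higher, and Rps2 then had a log2 fold change of 0.72 (FDR 0.0430). Without CUS mouse 1 or CUS mouse 4, no member was called and Rps2 fell under the minimum of UMIs. Leaving out control mouse 1, 2 or 4 also gave 0 calls, leaving out control mouse 3 gave 2 (Rps2 and Rps26, beside 0.561% of all genes called higher) and leaving out CUS mouse 3 gave 1 (Rps15, beside 0.365%, with Rps2 no longer called). With each of the 5 mice whose removal gave 0 calls left out, 0.0927 to 0.291% of all genes were called higher. The median log2 fold change was 0.21 without CUS mouse 1 and 0.45 without CUS mouse 2. edgeR's likelihood ratio test, which the study used with a batch term and which was run here without one, called 5 members (Rps2, Rps26, Rps15, Rps21 and Rplp2), beside 1.51% of all genes called higher, and DESeq2 called 0, beside 0.442%.

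The study ran its nuclei in batches that each held control and CUS mice. The labels do not give each mouse's batch, so no batch term was fitted and the part of batch in these values was not tested. Member shares in this class were 0.196, 0.157, 0.192 and 0.175% in control mice and 0.270, 0.157, 0.226 and 0.235% in CUS mice. CUS mouse 2 was level with the lowest control mouse.

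The effect of CUS was also compared within each mouse between Ex_L2/3-like nuclei and all other nuclei. Of 18 members tested, 0 were called at an FDR of 0.2 by edgeR's quasi-likelihood test and 0 had an unadjusted p under 0.05, beside 2.43% and 9.55% of all 4689 genes, and DESeq2 also called 0. The largest difference was that of Rps9, 0.28 (SE 0.14, FDR 0.525), and the median was 0.05. A difference in effect between layer 2/3 and the other nuclei was not shown for any of these members. Rps2 was not among them, so whether its effect differed between layer 2/3 and other nuclei was not tested. With 2406 UMIs, Rps2 was also under the minimum of 2662.6 for all nuclei summed and was not tested there.

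In the other 14 classes with over 200 nuclei, 255 pairs of member and class were tested and 0 were called by edgeR, beside 0.065% of all pairs of gene and class. Of these pairs, 201 were above 0, beside 50.4% of all pairs of gene and class, and the median log2 fold change was 0.24. The lowest FDR was 0.369, in layer 4 neurons (Ex_L4-like). Without CUS mouse 2, 5 members were called there, all higher (Rpl14, Rpl32, Rpl41, Rplp2 and Rps24), beside 3.44% of all genes called higher.

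Genes around the ribosome in Ex_L2/3-like nuclei gave 1 call of 16 in ribosome biogenesis, Dnajc21, higher, and 1 of 77 in the nuclear respiratory chain, Atp5k, higher, beside 1.09% of all genes called and 0.515% called higher. The respiratory chain had 68 of 77 above 0, beside 52.7% of all genes, and a median of 0.20. No gene was called among 9 of the mTOR pathway, 6 elongation factors, 28 initiation factors, 7 other TOP mRNAs, 19 mitochondrial ribosomal proteins and 7 transcripts of the mitochondrial genome. Log2 fold changes above 0 without calls were thus not limited to the members.

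Bulk and nuclei came from different mice and gave different values for the same members. Rps21 had a log2 fold change of -0.21 in bulk, 0.48 in all nuclei and 0.46 in Ex_L2/3-like nuclei, and Rpl32 had -0.13, 0.34 and 0.30. Rps2, which was called in Ex_L2/3-like nuclei, measured 15.4 ± 2.33 CPM in control and 16.3 ± 1.63 CPM in CUS mice in bulk (log2 fold change 0.09, FDR 0.671 in edgeR). Rps15a was above 0 in all 3 (0.15, 0.19 and 0.41). Of the 22 members tested in Ex_L2/3-like nuclei, 11 had the same sign in bulk, with Pearson's r of 0.06 across genes. Since all 22 were above 0 in Ex_L2/3-like nuclei, these 11 are simply those above 0 in bulk. Of the 19 tested in all nuclei, 10 had the same sign in bulk, with Pearson's r of -0.26. Genes are not independent replicates, and dissection, age and counting differed between the assays.

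**Figure D4:**
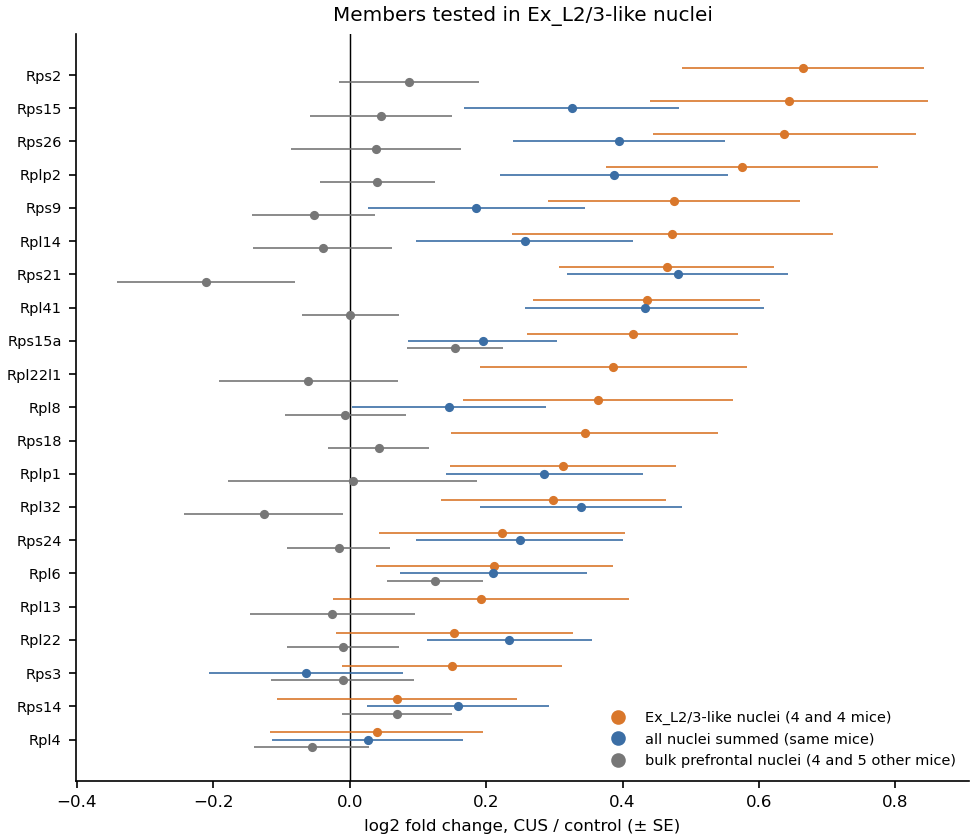
Log2 fold change (CUS over control) with its SE for the members tested in Ex_L2/3-like nuclei (all but 1 drawn), beside the same members in all nuclei summed and in bulk mPFC nuclei of other mice. All those drawn lie above 0 in Ex_L2/3-like nuclei, whereas in bulk they lie on both sides of 0.

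Cell classes differed in how much of their nuclear RNA came from members. Because classes were cut from the same cells, these values are a description. Layer 5 neurons (Ex_L5-like) had the lowest share of 15 classes in 8 of 8 mice, with a median of 0.166%. Layer 4 followed at 0.192% and layer 2/3 at 0.194%, and these traded places between mice. The highest medians were 0.275% in oligodendrocyte precursors (OPC-like) and 0.279% in Vip interneurons (Inh_Vip-like), 1.68 times that of layer 5. Classes with more UMIs per nucleus had lower shares (Spearman's rho -0.69 over 15 classes), and those with higher mitochondrial shares had higher ones (0.58).

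Summed over the 4 inhibitory classes (Inh_Pv, Inh_Sst, Inh_Vip and Inh_Ndnf), the share was higher than over the 5 excitatory layer classes (Ex_L2/3, Ex_L4, Ex_L5, Ex_L5/6 and Ex_L6) in 8 of 8 mice, 0.254 ± 0.046% against 0.203 ± 0.037% (SD over mice), a ratio of 1.255 ± 0.044. Classes outside these sums did not follow that order, as Claustrum-like nuclei (median 0.247%) lay above Inh_Pv-like nuclei (0.224%), and Striatal-like nuclei (0.217%) lay near Ex_L6-like nuclei (0.219%). Of 79 members with at least 200 UMIs, 72 had a ratio above 1, with a median of 1.26, against 1.08 over all genes of that depth. The share of all genes with a ratio above 1 was not counted, but their median of 1.08 puts most of them above 1 too. Taken singly, 15 of the 79 were higher in inhibitory nuclei in 8 of 8 mice, beside 20.4% of all genes. The highest ratios were those of Rps27l (2.06), Rpl21 (1.81) and Rpl15 (1.75). Rpl8 (1.55) and Rpl22l1 (1.44) came lower, with other members in between. Rps14 (1.01) and Rpl22 (1.03) were near 1 and Rpl12 (0.82) below. Rps14, Rpl8, Rpl12 and Rpl15 were named after their values were seen.

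**Figure D5:**
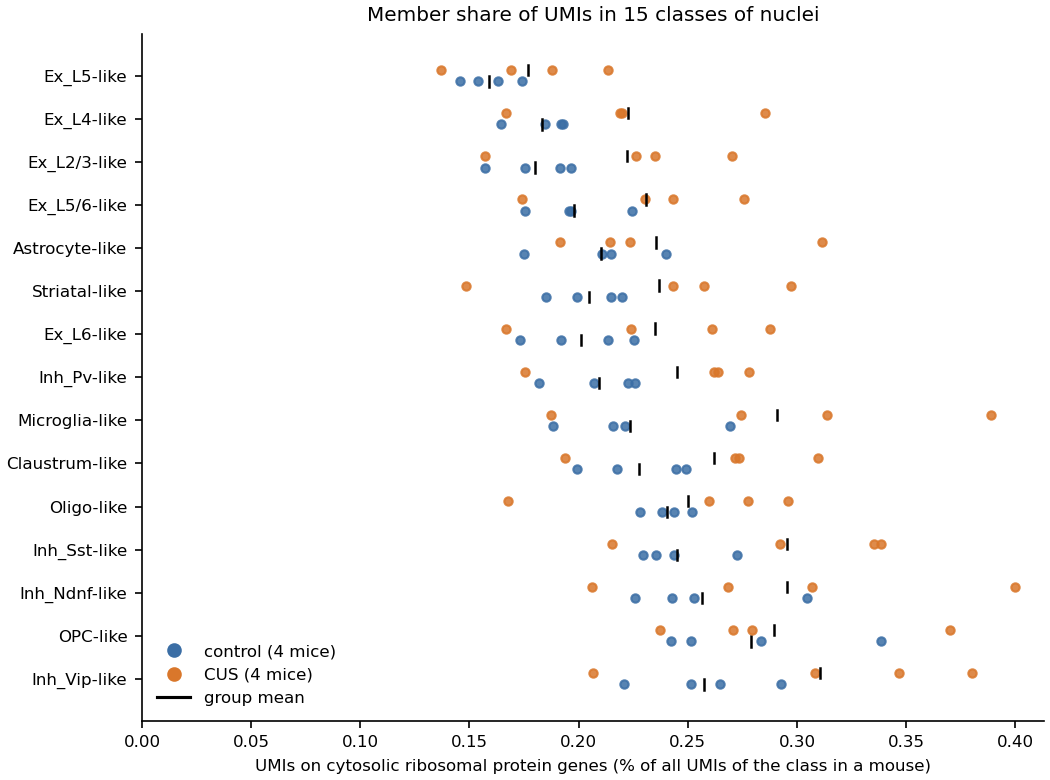
Share of UMIs on members (percent of the UMIs of a class in a mouse) in the 15 named classes with over 200 nuclei, with one dot per mouse and a line at each group's mean. Layer 5 neurons are lowest in all 8 mice, and inhibitory classes lie to the right of most excitatory classes.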

How the data were processed

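The authors aligned bulk reads to mm10 with STAR, kept uniquely mapped reads and deposited whole-number read counts per gene. Whether PCR copies were removed and intronic reads counted in bulk is not given in the sources used here. For nuclei, the deposited counts are UMIs on exons and introns for 5000 barcodes per mouse, before filtering. Members and gene lists were chosen with earlier results of these data known.

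edgeR 4.0.16 under R 4.3.3 was run on the counts (filterByExpr in bulk, TMM factors, quasi-likelihood test, Benjamini-Hochberg adjustment over all genes tested) at an FDR of 0.05 in bulk and in all nuclei and 0.2 in classes and for the difference between classes. Barcodes were kept at 600 to 5000 genes, a mitochondrial share below 5% and a doublet score no higher than 0.2, and were clustered with scanpy 1.11.5 and leidenalg 0.10.2 (2000 variable genes without members, 50 components, 20 neighbors, resolution 1). A cluster was named when at least 3 markers were enriched 1.5-fold in 5% of its nuclei and at least 2 stood among its 10 leading genes, more than for any other type, a rule set on the clusters without regard to condition, and 71.5% of nuclei were named. UMIs were summed per mouse, and genes with summed UMIs over 10% of the nuclei were tested. CPM per mouse divide a gene's count by the summed counts of the genes tested in that comparison times the TMM factor, whereas shares and the CPM of excitatory and inhibitory classes divide by all counts. Nuclei CPM therefore exceed a member's share of all UMIs. Each mouse is 1 replicate.

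Named members were those called, the 6 with the smallest p in bulk, all nuclei and Ex_L2/3-like nuclei, the stalk, Rpsa, Rps19, Rpl30, Rpl32, paralogs with their parents, the 3 highest and 3 lowest per kb and the member with most snoRNA genes. Others were named after their values were seen. Of the members, 1 is counted but not named or drawn, and 1 gene list is not reported here. Alternatives were the likelihood ratio test, DESeq2 1.42.0, no TMM factors, no filter, a replicate block, each mouse left out, no doublet filter, a minimum of 1000 genes and resolutions of 0.6 and 1.5. Tested on simulated data with 200 genes changed by 1 on the log2 scale, the bulk test on 18413 genes called 99.5% of them with 4.78% false calls, and the Ex_L2/3 test on 5417 genes called 98.9% of 183 with 17.7% false calls. The simulation gave all genes the same spread between mice. Its changes were larger than any member's in bulk or Ex_L2/3-like nuclei. These rates therefore do not say how often changes of the members' size would be called. Mice of 1 group differed by more than counting error (chi-square per degree of freedom 3.04 to 26.9 in bulk and 2.92 to 15.7 in nuclei).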

Additional observations from a re-analysis of the deposited data

Results flagged for a closer look

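In 7 of 140 groups of mice scanned for a mouse far from the others, 1 mouse stood apart, which is 5% of the groups and the share that chance gives. In bulk control mice, Rps15a was 29.5 CPM in mouse 4 (others 23.9 to 24.5) and Rps27 was 13.2 CPM in the same mouse (others 9.36 to 9.57). Control mouse 3 had 20.7 CPM of Rpl41 (others 16.6 to 17.2) and 18.8 CPM of Rps2 (others 13.7 to 14.5). In bulk CUS mice, Rpl39 was 7.64 CPM in mouse 1 (others 5.99 to 6.23) and Rpl7l1 was 16.3 CPM in mouse 4 (others 13.9 to 14.5). In nuclei of Pvalb interneurons (Inh_Pv-like), the member share was 0.176% in CUS mouse 2, and 0.262 to 0.278% in the other CUS mice.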

How the results depend on the processing

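Of the main results, 139 values under alternatives were counted as unmoved and 16 as moved. A count was unmoved if it equaled the main count or stayed within a set fold of it. A median or a difference in share was unmoved if it changed by less than the SD between mice. This is a wide limit, and the smaller difference in share over all nuclei without CUS mouse 1 fell within it. In bulk, members called numbered 0, and 0 to 1 when leaving out each mouse (Rps15a without control replicate 4). In all nuclei, 1 was called with no filter on low counts. In Ex_L2/3-like nuclei, where 1 was called, the likelihood ratio test called 5 (Rps2 among them), DESeq2 0, no TMM factors 0, no filter 2 (Rps15 and Rpl37, not Rps2) and no doublet filter 0, and leaving out each mouse gave 0 to 15. Over all genes, 1.51, 0.442, 0.331, 0.22 and 0.434% were called higher in these 5 settings, and 0.0927 to 7.08% when leaving out a mouse. Rps2 was also not called without CUS replicate 3 or with a minimum of 1000 genes, where the 1 call was Rps15. In these settings 0.365% and 0.521% of all genes were called higher. In other classes, leaving out each mouse gave 0 to 5 pairs. The cause was not tested. With a replicate block, 3 members were called in Ex_L2/3-like nuclei (beside 1.73% of all genes called higher) and 0 in bulk (beside 1.29% called), in all nuclei and in other classes. Whether replicate numbers pair these mice was not settled. Correlations of same-numbered mice were 0.03 to 0.23 in bulk. In nuclei they were 0.37 and 0.40 for replicates 1 and 3, and -0.06 and -0.46 for replicates 2 and 4. Of control mice, 2 of 4 in bulk and 1 of 4 in nuclei correlated best with their own number. A block could not be fitted for the difference between classes, where it is nested in the mouse. Among named members, 761 values were counted as unchanged, 20 newly passed and 9 no longer did. Members within 1 SE of 0 were given no direction, so a change of sign in them was counted as unchanged. Rpl36al in bulk, for example, changed sign in 9 of 14 alternatives. Resolution 0.6 gave no named cluster for Ex_L5/6 and Inh_Pv, a minimum of 1000 genes left OPC, Oligo and Microglia at 200 nuclei or fewer, and Rps2 could not be tested in 2 settings. Depth limits the nuclei too, where 4 members had under 100 UMIs.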

Other observations

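Small clusters outside the tests had the highest member shares. Endothelial-like nuclei (59 nuclei) had 1.201% of their UMIs on members, early oligodendrocytes (Oligo_Enpp6-like, 80 nuclei) 0.394% and an unnamed cluster led by Nefm (173 nuclei) 0.549%. Per mouse, the share in Endothelial-like nuclei ran from 0.241 to 1.42%. The lowest of these, and the 0.394% of early oligodendrocytes, lay within the 0.206 to 0.400% that Inh_Ndnf-like nuclei showed over mice. These clusters were too small for a test.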
